A study of Mus musculus with 6 samples.

Results

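Angiotensinogen (Agt) and 5 further genes of the renin-angiotensin system, Ace, Agtr1a, Agtr2, Ren1 and Enpep, were followed in brain tissue of mice that lack parts of the reelin pathway. All probe sets that the array's annotation names for 1 of these genes were taken, which gave 6 probe sets of 45101. They measured 5 of the 6 genes, among 18194 genes on the array, and no probe set is named for Ren1 here. The 2 genes Agt and Ace averaged 89.0 or more over the arrays, the middle value of all probe sets, and were among the 11499 genes kept for testing. The genes were picked with the difference between mutants and comparison arrays already known, so their own differences are given as a description, with no test.

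Angiotensinogen is the secreted precursor of all angiotensin peptides. It comes from the liver and, within the brain, mainly from astrocytes. Renin, encoded by Ren1, cuts it to angiotensin I, angiotensin-converting enzyme (Ace) turns that into angiotensin II, and aminopeptidase A (Enpep) trims angiotensin II to angiotensin III. The receptors AT1 (Agtr1a) and AT2 (Agtr2) bind these peptides, and AT1 is known for its part in thirst and blood pressure control.

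Each of 6 arrays measured RNA labelled as from 1 frontal cortical lobe of an untreated mouse aged 21 days. There was 1 array per genotype and no replicate of any genotype. The 3 reeler models were labelled DAB1 KO, REELIN KO and APOER2-VLDLR KO (the double KO). The 3 comparison arrays were labelled VLDLR KO, APOER2 KO and Wild type (WT). All mice were on a mixed background of C57BL/6 and 129 and were labelled male. The receptor cross gave the double KO, both single receptor KOs and the WT, whereas the Dab1 KO and the Reln KO came from crosses of their own with no WT array, so cross and genotype cannot be told apart for those 2. Reelin (Reln) is secreted and guides neuron placement through the receptors Vldlr and Apoer2, whose gene symbol is Lrp8, and through the intracellular adaptor Dab1. Which part of each gene was deleted is not stated in the labels.

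Median signals were 86.5 to 92.3 over the 6 arrays. Signal of the targeted gene was low on the Reln KO array for Reln (79.9, against 1498 to 1880 on the other arrays) and on the double KO and Apoer2 KO arrays for Lrp8 (13.7 and 4.2, against 342 to 380). Vldlr gave 126.8 on the double KO and 217.9 on the Vldlr KO array, against 472 to 600.0 elsewhere, and Dab1 gave 478 on the Dab1 KO array, against 516 to 626, so the Dab1 probe set shows little loss. Xist gave 3368 to 4006 on 5 arrays and 124.9 on the Apoer2 KO array, which goes against the male label of those 5. The Apoer2 KO array also gave 3705 for the pituitary hormone gene Gh, against 13.1 to 32.4 elsewhere, so results were also computed without it. All 12 kept genes of cerebellar granule cells had class differences below 0 (median -1.52 on the log2 scale), and 8 passed by limma at an adjusted p under 0.05, where 0.113% of all genes passed as lower. Without the Apoer2 KO array 7 passed, and without the WT array 0 passed, with 11 of the 12 at an unadjusted p under 0.05. The part of this shift in the results below was not tested. Of 9 kept hypothalamic genes 5 were above and 4 below 0 (median 0.04). The highest of them, Oxt, gave 740 to 1104 on the reeler and 756 to 908 on the comparison arrays. The filter left out Trh, which gave 66.0, 109.6 and 20.5 on the Dab1, Reln and double KO arrays, without class overlap. On the Vldlr KO, Apoer2 KO and WT arrays Trh gave 15.1, 13.3 and 7.6. Also left out were Ghrh and Six6, at 0.54 and 0.39, and Nkx2-1 at -0.42. How much tissue from outside the labelled lobe each sample held was not tested, so the differences below cannot be placed in cortex alone.

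The promoter of Agt is shown because Agt was the only one of the 5 measured genes whose signals on the 3 reeler arrays all lay outside the range of the comparison arrays. The 250 bases before its RefSeq start lie on the minus strand of GRCm38.p6 at chr8:124569707-124569956, and capitals mark a TATAAA match at bases 30 to 25 before the start.
Agt promoter: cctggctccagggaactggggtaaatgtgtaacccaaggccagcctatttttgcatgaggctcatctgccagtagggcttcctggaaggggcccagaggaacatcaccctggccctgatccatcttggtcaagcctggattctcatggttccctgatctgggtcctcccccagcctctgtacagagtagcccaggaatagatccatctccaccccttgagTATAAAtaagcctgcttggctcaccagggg

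TATAAA, searched on both strands, was found in 12.4% of the 32851 promoter windows of RefSeq of the same length. A STAT-type TTCNNNGAA stands at bases 172 to 164 before the Agt start and is found in 7.02% of windows. A motif of NF-kB type, found in 17.6% of windows, matched on the other strand at bases 91 to 82, and none of the 3 matches overlaps another. The window holds no TGTTCT, the half-site of the glucocorticoid receptor (16.1% of windows), and no TTGCNNAA of C/EBP type (9.56%). Of the other members, Ren1, Enpep and 1 of the 2 windows of Ace hold TATAAA, and the window of Agtr2 does not. These matches describe letters in a window and are no evidence of binding.

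Agt gave signals of 1154 on the Dab1 KO array, 1306 on the Reln KO array and 1261 on the double KO array, against 652 on the Vldlr KO, 784 on the Apoer2 KO and 591 on the WT array. All 3 reeler models lay above all 3 comparison arrays, and the lowest reeler array was the Dab1 KO. The mean was 1240 ± 78.1 in the reeler models and 676 ± 98.5 in the comparison arrays (SD, n = 3 arrays of different genotypes each), 1.84 times as high. The log2 difference of reeler models minus comparison arrays was 0.86, on a scale of log2(signal + 28.1), with the lower quartile of all signals as the added constant. Without the Apoer2 KO array it was 0.96, and within the receptor cross alone, the double KO against the other 3 arrays, it was 0.88. In bulk tissue, more or fewer cells of a type and more or less RNA per cell cannot be told apart.

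Classes did not overlap at 1 of the 6 probe sets, against 14.6% of all mouse probe sets, or 7.39% with the reeler models higher. Since Agt was chosen on this contrast, nothing is read from that share. Of the 11499 genes kept, 51.9% had a class difference above 0, and the median was 0.01.

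**Figure D1:**
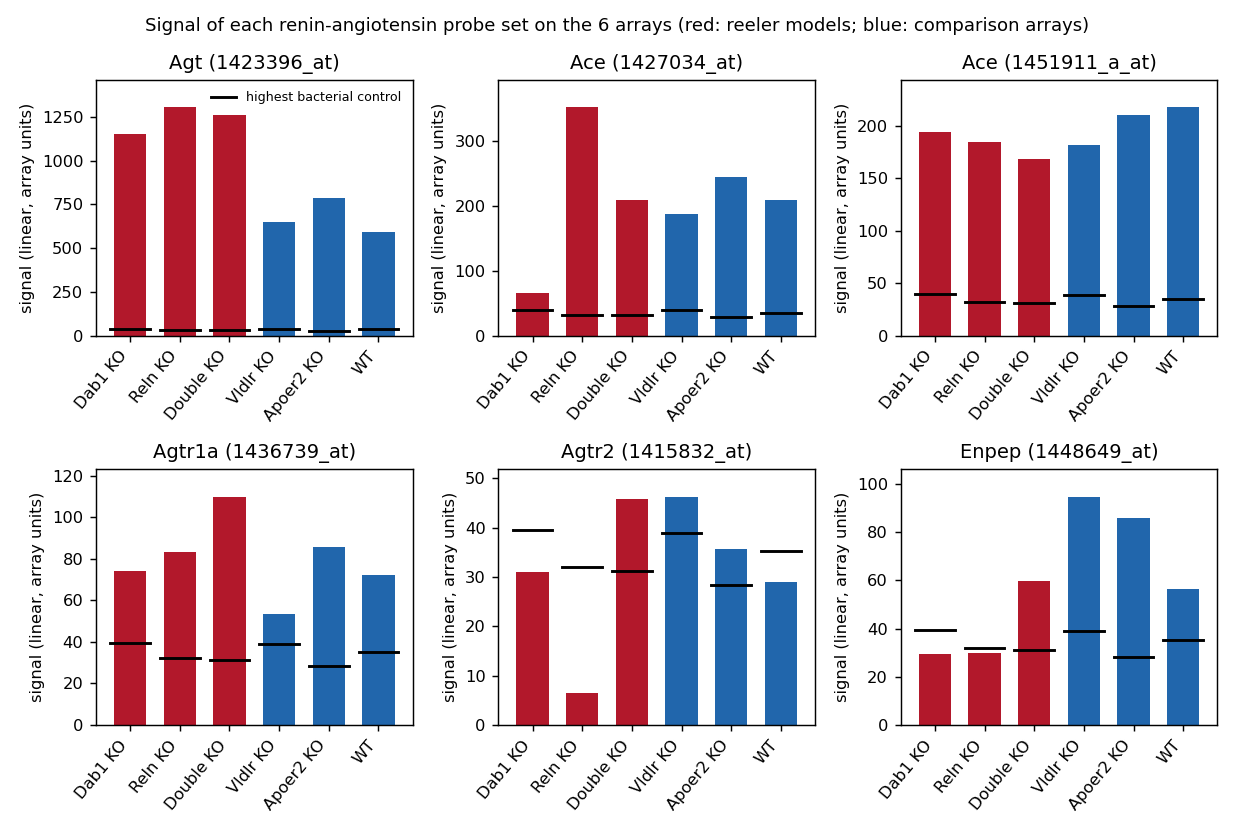
Signal (linear array units) of each of the 6 probe sets on each array, with reeler models in red, comparison arrays in blue and a black line for the highest bacterial control of that array. Agt stood between 1154 and 1306 on the reeler arrays and between 591 and 784 on the comparison arrays, whereas Agtr2 and Enpep lay near the bacterial controls on several arrays.

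Each mutant array was next set against the WT array, which all these differences share. Agt was higher than on the WT array by log2 0.93 on the Dab1 KO, 1.11 on the Reln KO and 1.06 on the double KO array. The single receptor KOs differed from the WT by log2 0.13 for Vldlr and 0.39 for Apoer2. With 1 array on each side these are values of 2 mice and carry no test.

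The place of Agt among all 11499 genes rests on the values that chose it and is given as a description. On the double KO array 29 genes (0.252%) were at least as far above the WT as Agt, on the Dab1 KO array 46 (0.400%) and on the Reln KO array 95 (0.826%). On the Apoer2 KO array there were 415 such genes (3.61%), and on the Vldlr KO array 3153 (27.4%). The Reln KO array, where Agt gave its highest signal, also had the most genes at least 2-fold above the WT, 133 (1.16%). There were 39 (0.339%) on the double KO and 33 (0.287%) on the Dab1 KO array, and 28 (0.243%) and 23 (0.200%) on the Vldlr KO and Apoer2 KO arrays. On this scale Agt was past 2-fold on the Reln KO and double KO arrays, at 2.15 and 2.08, and at 1.91 on the Dab1 KO array.

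Genes that mark astrocytes, the source of Agt in brain, were examined beside it. All 22 of a list of 22 astrocyte genes were kept, none was at 0 on any array, and 11 lay above and 11 below 0 with a median of 0.02. None passed the class comparison (limma, adjusted p under 0.05). Of all genes 0.130% passed, 0.0174% higher and 0.113% lower. The higher share is 2 genes, 1 of them Agt, and nothing is read from its passing, since it was chosen on this contrast. The lower share is 13 genes, 8 of them the granule cell genes above. At an unadjusted p under 0.05 the list held 2 higher and 6 lower genes, where 11.0% of all genes reached that level, 5.23% higher and 5.81% lower. The same shares stand beside each list below, as does the 51.9% of all genes above 0. The highest were Gjb6, encoding connexin 30, at 0.28 and Cst3, encoding cystatin C, at 0.22. The lowest were Aqp4, encoding the water channel of astrocyte endfeet, at -0.52 and Mlc1 at -0.47. None reached the 0.86 of Agt, but of all 11499 genes only 17 (0.148%) lay above it. Since Agt was chosen on this contrast, nothing is read from that. The summed signal of the list was 55178 to 63815 on the reeler arrays and 54841 to 59047 on the comparison arrays, ranges that overlap. Bright genes such as Apoe, Cst3 and Slc1a2 weigh most in this sum. Apoe alone gave 7614 to 9954 on the reeler and 7112.5 to 8819 on the comparison arrays.

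Lists of regional astrocyte genes differed in the sign of their medians. Of 4 genes of astrocytes outside the telencephalon, 3 lay above 0 (median 0.28), none passed by limma, and 2 higher had an unadjusted p under 0.05. The highest was Itih3, with 749, 1275 and 950 on the Dab1, Reln and double KO arrays against 508, 790 and 746 on the Vldlr KO, Apoer2 KO and WT arrays (log2 0.52), so the classes overlapped. The list summed to 7440 to 8736 on the reeler and 6245 to 7266 on the comparison arrays. Most of each sum was Sparc, with 4910 to 5796 on the reeler and 4153 to 4873 on the comparison arrays. Slc6a11 and Slc6a9 overlapped by class, as Itih3 did. At the probe sets used, all 4 genes of telencephalic astrocytes lay below 0 (median -0.21), the lowest being Mfge8 at -0.34 and Lhx2 at -0.27. Another probe set of Rgcc, 1 of the 4, was at 0.33, against -0.15 at the one used, with overlapping classes at both. None of the 4 passed by limma, and 1 lower had an unadjusted p under 0.05. This list summed to 2015 to 2681 on the reeler arrays and 2711 to 2874 on the comparison arrays. Among 6 kept genes of Bergmann glia, the astrocytes of the cerebellar cortex, all were below 0 with a median of -0.37. None passed by limma, and 3 lower had an unadjusted p under 0.05, where 5.81% of all genes were lower at that level. The lowest, Gdf10, gave 330, 199 and 199 on the Dab1, Reln and double KO arrays against 658, 579 and 542 on the Vldlr KO, Apoer2 KO and WT arrays (log2 -1.23, SE 0.18, limma adjusted p = 0.0598). The part of these shifts in the Agt difference was not tested.

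Vessel cells, which carry Ace and Enpep, were checked in the same way. Of 13 endothelial genes 4 were above and 9 below 0 (median -0.27), and of 12 genes of pericytes and smooth muscle 7 were above and 5 below (median 0.07). None of either list passed, and at an unadjusted p under 0.05 there was 1 lower endothelial gene. The 5 kept choroid plexus genes had a median of -0.06.

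**Figure D2:**
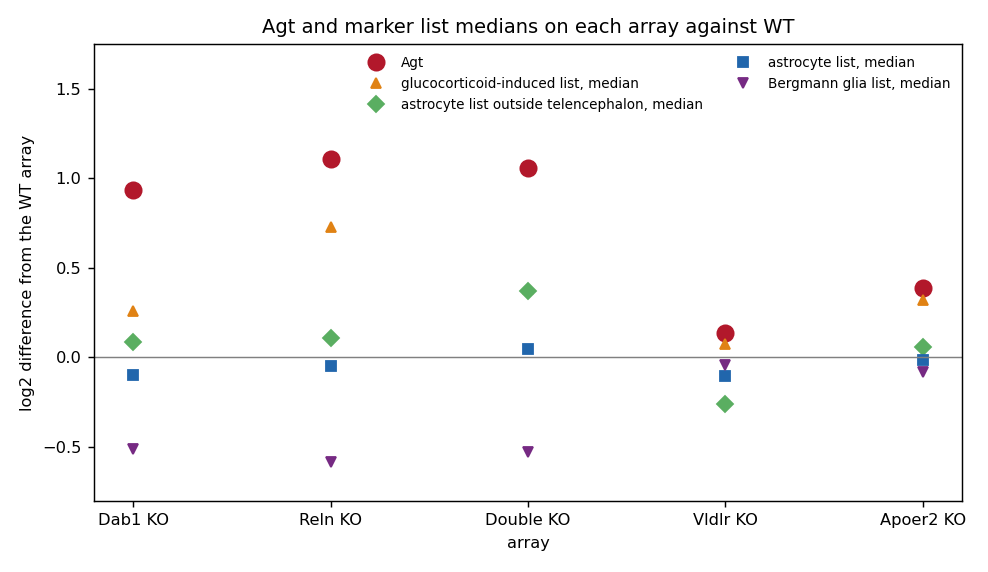
Log2 difference from the WT array (vertical axis, on log2(signal + 28.1)) of Agt and of 4 list medians on each mutant array. Agt lay at 0.93 to 1.11 on the 3 reeler arrays and at 0.13 and 0.39 on the single receptor KOs, while the median of the 22 astrocyte genes stayed between -0.10 and 0.05.

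Ace, the converting enzyme, had 2 probe sets that differed in spread. The probe set kept for testing gave 65.1, 353 and 209.4 on the Dab1, Reln and double KO arrays, against 189, 245 and 209.6 on the Vldlr KO, Apoer2 KO and WT arrays. The lowest and the highest of the 6 signals were both reeler models, the classes overlapped, and the means were 209 ± 144 in the reeler models and 214 ± 28.5 in the comparison arrays. Its log2 difference of -0.25 turned to 0.32 without the Dab1 KO array, so that array decides its sign. The other probe set gave 195, 185 and 169 on the Dab1, Reln and double KO arrays, against 182, 210.1 and 218 on the Vldlr KO, Apoer2 KO and WT arrays, with overlapping classes and a difference of -0.13.

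Enpep, which makes angiotensin III, gave 29.6, 29.9 and 59.8 on the Dab1, Reln and double KO arrays, against 94.8, 86.0 and 56.6 on the Vldlr KO, Apoer2 KO and WT arrays. The double KO was just above the WT, so the classes overlapped. The highest of the 27 bacterial controls, which match nothing in a mouse, read 39.6 on the Dab1 KO and 32.1 on the Reln KO array, so both Enpep signals there were at background. With 2 of 3 reeler signals not above background, no fold is given, and the measured means were 39.8 ± 17.4 in the reeler models and 79.1 ± 20.0 in the comparison arrays (SD, n = 3 each).

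The receptors were dim. Agtr1a, encoding AT1a, gave 74.0, 83.1 and 109.9 on the Dab1, Reln and double KO arrays, against 53.6, 85.4 and 72.2 on the Vldlr KO, Apoer2 KO and WT arrays. It was above the highest bacterial control on all 6 arrays, with overlapping classes, means of 89.0 ± 18.7 and 70.4 ± 16.0 in reeler and comparison arrays, and a log2 difference of 0.25, which was 0.50 within the receptor cross. Its mean of 79.7 over the 6 arrays was below the limit for testing.

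Agtr2, encoding AT2, gave 31.1, 6.5 and 45.8 on the Dab1, Reln and double KO arrays, against 46.3, 35.6 and 28.9 on the Vldlr KO, Apoer2 KO and WT arrays. It was at or below the highest bacterial control on the Dab1 KO, Reln KO and WT arrays, so no fold is given and its order over the arrays is not read.

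Other genes of the pathway, peptidases and receptor partners, were listed from general knowledge, with earlier results of these data already known. Of 25 genes 22 had a probe set and 12 were kept, 7 above and 5 below 0 with a median of 0.05. None passed limma's test in either direction under any of the 16 other settings or the one used here, and 1 higher and 2 lower had an unadjusted p under 0.05.

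The highest were Prep, a prolyl endopeptidase that can form angiotensin-(1-7), and Dpp3, a peptidase that degrades angiotensin II. Prep gave 374, 324 and 360 on the Dab1, Reln and double KO arrays, against 282, 311 and 278 on the Vldlr KO, Apoer2 KO and WT arrays, without overlap (log2 0.26, SE 0.10, limma adjusted p = 0.431). Dpp3 was at 0.19 with overlapping classes (limma adjusted p = 0.634).

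The lowest were Mtus1, which encodes a protein that binds the AT2 receptor, and Rnpep, aminopeptidase B. Mtus1 gave 344 to 372 on the 3 reeler arrays and 497, 589 and 664 on the Vldlr KO, Apoer2 KO and WT arrays, without overlap (log2 -0.64, SE 0.12, limma adjusted p = 0.129). Its other probe sets were at -0.73 without overlap and -0.60 with overlap, so all 3 lay below 0. Rnpep gave 242 to 284 on the reeler arrays and 317 to 413 on the comparison arrays (log2 -0.36, SE 0.13, limma adjusted p = 0.395).

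The prorenin receptor gene Atp6ap2, named here after its values were seen, gave 4167, 4313 and 3908 on the Dab1, Reln and double KO arrays, against 3715, 3862 and 3499 on the Vldlr KO, Apoer2 KO and WT arrays (log2 0.16, limma adjusted p = 0.452). The classes did not overlap, and the gap between them was small beside that of Agt.

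Of 12 kept genes that couple the AT1 receptor to its signals none passed, 1 higher and 1 lower had an unadjusted p under 0.05, and the median was 0.07. The lowest was Rgs5, a G-protein regulator of pericytes, with 1586, 886 and 705 on the Dab1, Reln and double KO arrays against 1537, 1579 and 2019 on the Vldlr KO, Apoer2 KO and WT arrays (log2 -0.75, limma adjusted p = 0.374). The highest was Rgs2, which dampens Gq signals, with 830.0, 1390 and 739.8 on the Dab1, Reln and double KO arrays against 626, 701 and 672 on the same comparison arrays (log2 0.49, limma adjusted p = 0.431). The Reln KO array held the highest Rgs2 signal, and the 6 arrays did not overlap by class.

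Genes known to regulate Agt transcription were split. Of 10 kept genes 5 lay on each side of 0, the median was 0.04, none passed, and 2 lower and 0 higher had an unadjusted p under 0.05 by limma. Cebpb, a factor of the acute phase response, was highest at 0.55 with 259, 584 and 315 on the Dab1, Reln and double KO arrays against 245, 277 and 203 on the Vldlr KO, Apoer2 KO and WT arrays, so the Dab1 KO lay within the range of the comparison arrays. Cebpd followed at 0.41 with overlapping classes. Its other probe set was at -0.49, with signals at background on the Reln KO and double KO arrays (20.2 and 15.7). Nfia was lowest at -0.36, and the glucocorticoid receptor gene Nr3c1 was at -0.27 with 702, 560 and 763 on the Dab1, Reln and double KO arrays against 816, 838 and 791 on the Vldlr KO, Apoer2 KO and WT arrays (limma adjusted p = 0.449).

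Glucocorticoids are known to raise Agt transcription, and a list of 18 glucocorticoid-induced genes was compared. All 18 were above 0 with a median of 0.42, where 51.9% of all genes were above 0. None passed by limma, and 9 higher had an unadjusted p under 0.05, where 5.23% of all genes were higher at that level. The list was chosen with earlier results in view, so its direction is no independent evidence. Plin4, a lipid droplet protein gene, was highest at 1.25. Fkbp5, encoding a co-chaperone of the glucocorticoid receptor, gave 986, 1986 and 871 on the Dab1, Reln and double KO arrays against 489, 669 and 518 on the Vldlr KO, Apoer2 KO and WT arrays (log2 1.07, limma adjusted p = 0.25). Per1 at 0.02 and Tsc22d3 at 0.09 were lowest.

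The Reln KO array carried much of the list's shift. Its median against the WT array was 0.26 on the Dab1 KO, 0.73 on the Reln KO and 0.38 on the double KO array, and 0.08 and 0.32 on the Vldlr KO and Apoer2 KO arrays. Without the Reln KO array the class median was 0.22, against 0.42 with it, and the Agt difference was 0.82, against 0.86 with it. Whichever single array was left out, the list median was 0.22 to 0.48, with 16 to 18 of the 18 genes above 0. The Agt difference was then 0.77 to 0.96. Agt is 1 gene chosen on this contrast, so its steadiness beside a list median is not read. Whether the list and Agt share a source was not tested.

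Angiotensinogen belongs by sequence to the serpin family. Of 8 kept serpin genes 1 was above and 7 below 0 (median -0.12), and none passed. At an unadjusted p under 0.05 there were 2 lower, where 5.81% of all genes were lower at that level. The lowest was Serpina3n, an acute phase serpin that reactive astrocytes make, with 302, 187 and 58.7 on the Dab1, Reln and double KO arrays against 771, 847 and 808 on the Vldlr KO, Apoer2 KO and WT arrays (log2 -2.19, SE 0.40, limma adjusted p = 0.120). Serpinh1, the collagen chaperone HSP47, gave 173 to 203 on the reeler arrays and 312 to 360.5 on the comparison arrays (log2 -0.75, limma adjusted p = 0.0630). Serpini1, the neuronal serpin, was highest at 0.06.

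**Figure D3:**
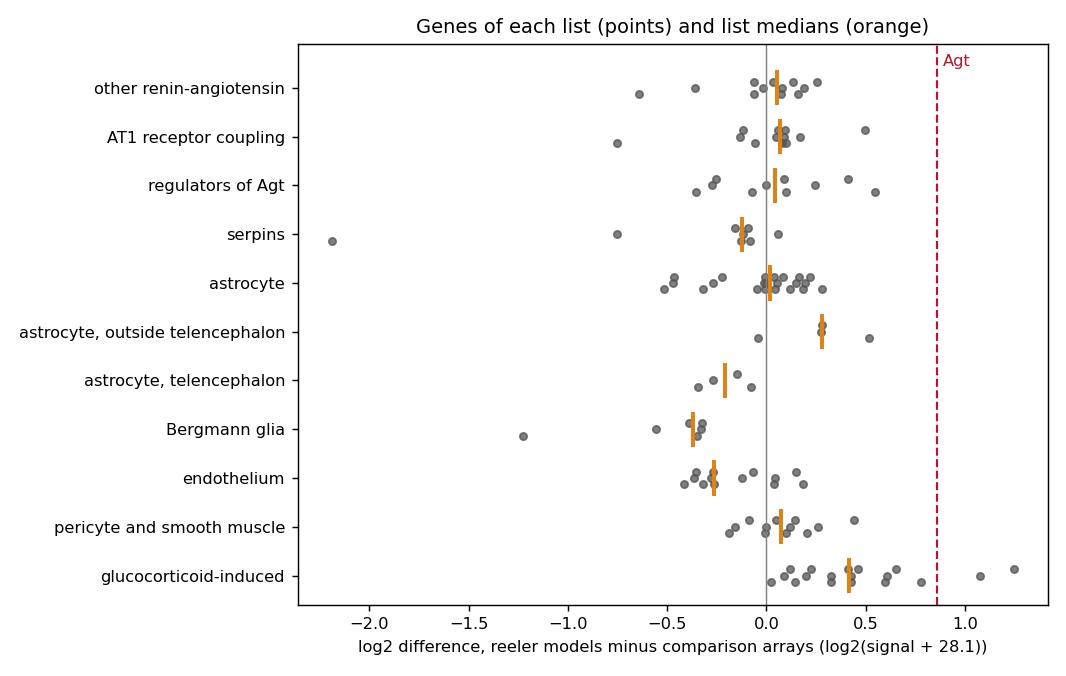
Log2 difference of reeler models minus comparison arrays (horizontal axis) for the kept genes of 11 lists, each point a gene and each orange bar the list median, with Agt as the dashed line at 0.86. Of the genes shown, Plin4 at 1.25 and Fkbp5 at 1.07 lie to the right of Agt, and the 22 astrocyte genes lie between -0.52 and 0.28.

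The genes whose pattern over the 6 arrays was most like that of Agt were found by the root mean square distance between centred log2 values. The 5 nearest were Angptl4 at 0.13, Sbsn at 0.13, and 4930503B20Rik, Pus7l and Arrdc2 at 0.18 each. Angptl4, encoding an inhibitor of lipoprotein lipase, is also 1 of the 18 glucocorticoid-induced genes listed above. It gave 136, 129.9 and 156 on the Dab1, Reln and double KO arrays against 57.2, 88.1 and 67.1 on the Vldlr KO, Apoer2 KO and WT arrays. Sbsn, encoding suprabasin, gave 483, 677 and 658 on the Dab1, Reln and double KO arrays against 336, 436 and 275 on the same comparison arrays. Both were chosen for their likeness to Agt over these 6 arrays, so their shared order of arrays is no finding.

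Actb, encoding beta-actin and named here after its values were seen, was the eighth nearest. Its 3' control probe set gave 3626, 3515 and 3456 on the Dab1, Reln and double KO arrays against 2846, 2839 and 2336 on the Vldlr KO, Apoer2 KO and WT arrays. Agt relative to that control was log2 -1.63, -1.41 and -1.43 on the Dab1, Reln and double KO arrays and -2.08, -1.82 and -1.93 on the Vldlr KO, Apoer2 KO and WT arrays. The classes stayed apart, with a difference of 0.45 against 0.86 without the control, and the Gapdh controls differed by 0.08 to 0.12. What moves Actb with the classes was not tested.

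**Figure D4:**
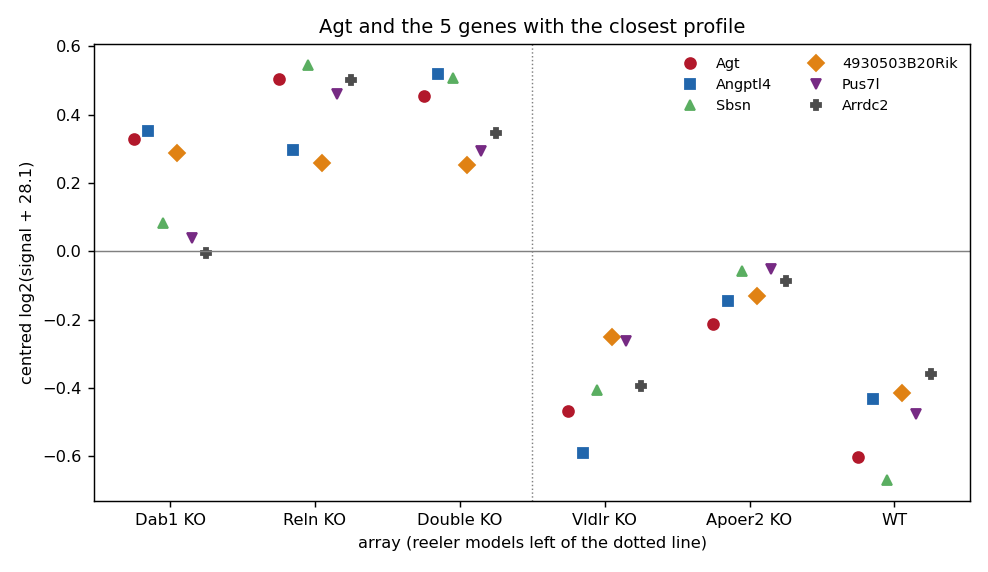
Centred log2(signal + 28.1) (vertical axis) of Agt and its 5 nearest genes on each array, with reeler models left of the dotted line. Agt and Angptl4 were above 0 on every reeler array and below 0 on every comparison array.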

How the data were processed

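The authors deposited 1 signal intensity per probe set and array, not log-transformed, for 45101 probe sets. The submitters' processing notes name Affymetrix Expression Console and MAS5 (versions not given in the sources used here). Extraction used RNA-Stat60 and labelling gave biotinylated cRNA, per the labels' protocols. By the platform annotation 34958 probe sets have 1 gene, 932 several, and 9211 are unnamed here. RefSeq tables served for names (34754 matched, 0 symbols changed) and for the promoter.

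A gene was represented by its brightest probe set (those ending in _x_at last) and was kept at a mean signal of 89.0 or above. Values were analysed as log2(signal + 28.1). Reeler models and comparison arrays were contrasted in limma 3.58.1 (R 4.3.3), using trended empirical Bayes and Benjamini-Hochberg adjustment over 11499 genes. On simulated data with 200 genes changed 2-fold, this procedure found 161 of them and made 13 false calls. The simulated noise was independent between arrays. It held no differences of cross, sex or dissection, so the simulation does not cover those. Genotypes of a class stand in as replicates, so p-values reflect only the spread among these 6 arrays, which may be technical.

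The members and gene lists were chosen with earlier results of these data known. Named genes are the members, the 2 highest and 2 lowest genes of lists described, the 5 nearest to Agt and the genes that check the labels. Alternatives were other pseudocounts and filters, quantile normalization, other probe set rules, no trend, other comparison arrays and each array left out.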

Additional observations from a re-analysis of the deposited data

How the results depend on the processing

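The Agt difference of 0.86 was 0.77 to 1.03 in 11 other settings of pseudocount, scaling and arrays used. It was 0.77 to 0.96 when 1 array was left out and 1.03 with WT as the only comparison array. With all reeler signals above all comparison signals, no choice of arrays or pseudocount could turn its sign, so only its size is read. Relative to the Actb control, a setting chosen after seeing the data, the Agt difference was 0.45. Agt was among the genes past the adjusted threshold here, and was not in 5 of the runs with 1 array left out. The count of genes past the adjusted threshold was 15 (limma). It was 27 probe sets, not genes, with all probe sets tested singly. Genes numbered 0 with WT as the only comparison array (412 higher and 480 lower at an unadjusted p under 0.05), and 1 to 22 when 1 array was left out, the 1 being without the WT array. Among the other members, the tested probe set of Ace turned to 0.32 without the Dab1 KO array (-0.25 with it). Agtr1a and the other probe set of Ace kept their sign in each of these settings, and Agtr2 and Enpep, at background on several arrays, are not read. Of 12 cerebellar granule cell genes 0 to 9 passed when 1 array was left out, a check chosen after seeing the data. List medians with each array left out were chosen likewise: -0.03 to 0.07 for astrocytes, 0.15 to 0.29 for those outside the telencephalon, -0.29 to -0.08 for the telencephalon and 0.22 to 0.48 for glucocorticoid-induced genes. No paired analysis was possible because each genotype has 1 array and the replicate numbers pair nothing. The number of arrays limits every value, and signals near the bacterial controls are bounds more than levels.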
